A study of Rattus norvegicus with 5 samples.

Results

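The pyruvate dehydrogenase complex, its kinases and its phosphatases were followed by RNA-seq in cultured vascular smooth muscle cells of the rat, which give vessel walls their contractile force, over 5 libraries. The 10 genes were taken by symbol from the deposited tables, with 1 row per symbol, and make up 10 of 17048 rows: the kinases Pdk1, Pdk2, Pdk3 and Pdk4, the phosphatases Pdp1 and Pdp2, and the core subunits Pdha1, Pdhb, Dlat and Pdhx. Each condition is 1 library of cultured cells: hypoxia for 24 h after pretreatment with In-Cl at 0.1 µM, DPN at 0.1 µM or E2 at 10 nM, hypoxia for 24 h alone, and a library labelled as control. In-Cl is an indazole compound, DPN is diarylpropionitrile, which prefers estrogen receptor beta, and E2 is estradiol, the natural estrogen. The vessel, the rat strain, the oxygen level, the length of pretreatment and whether the hypoxia and control cells received a vehicle are not stated in what was available. With 1 library per condition there is no spread between cultures and no test across samples. Every difference below is between libraries.

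The complex sits in the mitochondrial matrix and turns pyruvate, the end product of glycolysis, into acetyl-CoA for the tricarboxylic acid (TCA) cycle. Its kinases phosphorylate the alpha subunit and switch the complex off, which leaves pyruvate to be reduced to lactate, and its phosphatases switch it on again. Pdk1 is a textbook target of hypoxia-inducible factor, the transcription factor of the response to low oxygen, and Pdk4 is best known as the isoform raised by fasting and fatty acids in muscle.

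The authors deposited log2 values. No source used here states their scale. They were read from the values as log2 of an adjusted read count plus 1, that is of a read count adjusted between libraries. The adjusted counts did not have equal totals, with sums from 2.07e+07 in the control to 2.28e+07 in hypoxia alone. The approximate reads and all counting intervals rest on that reading, and within 0.2 read of a whole number lay 99.2% to 100% of low values in the 4 hypoxic libraries and 90.8% in the control. The value of 1 read was chosen to bring low values near whole numbers, so these shares are no independent check. Values nearer to 0 than to 1 read were left out, such as 0.104 for Dcn with DPN. Rows listed at 0 numbered 3651 in the DPN, E2 and hypoxia libraries, 4634 with In-Cl and 4679 in the control. The libraries held about 2.00e+07 (E2) to 2.51e+07 (control) reads, as recovered from the steps between low values. A counting interval is the exact 95% Clopper-Pearson interval of a log2 difference, or the exact Poisson interval of a level, computed from those approximate reads. It covers counting error only. All 10 smooth muscle markers had at least 1 read in every library, with summed adjusted counts of 267508 to 330597. Most of that sum was Acta2, Tagln and Cald1. Among the others, Smtn had 1920 to 2206 in the hypoxic libraries and 4374 in the control, and Des had 19.7 to 32.6 and 4.33. The cardiac or skeletal muscle list, mostly Tnnt2, summed to between 59.2 and 115 in the hypoxic libraries and to 86.8 in the control. The endothelial markers Cdh5 and Kdr, the leukocyte markers Cd3e and Itgam and the adipocyte marker Adipoq were listed at 0 in all 5 libraries. The other 4 of 6 endothelial markers had reads, and the list summed to between 451 and 522 in the 4 hypoxic libraries and to 417 in the control. Most of that sum was Tek, with 369.7 to 439 in the hypoxic libraries and 244 in the control, while Flt1 had 62.8 to 95.5 in the hypoxic libraries and 158 in the control. The leukocyte list, with reads mainly of Cd68 and Ptprc, summed to between 21.0 and 29.9 in the hypoxic libraries and to 20.9 in the control, and the adipocyte list, with reads of Plin1, Lep and Fabp4, to between 2.25 and 5.15 in the hypoxic libraries and to 1.61 in the control. The 4 fibroblast markers, nearly all of it Col1a1, summed to between 263781 and 285563 in the 4 hypoxic libraries and to 228890 in the control, whereas Lum among them had 552 to 623 in the hypoxic libraries and 1214 in the control, and the part of these lists in the differences was not tested. In bulk RNA a lower share of expressing cells and less RNA per cell cannot be told apart.

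The promoters of the 4 kinases are printed because the kinases differed most from each other between the hypoxia and control libraries, and because the core of the hypoxia response element, to which hypoxia-inducible factor binds, can be looked for in them. They run from 250 bases before to 50 bases after the start site and come from RefSeq (build GRCr8), whose table held 8 of the 10 genes by symbol. The searched motifs were ACGTG and GCGTG on both strands, and capitals mark the matches. Where CACGTG occurs, the first motif is read on both strands over shared bases. The Pdk1 promoter lies at chr3:77113264-77113563 on the + strand, Pdk2 at chr10:80483863-80484162 on the - strand, Pdk3 at chrX:62547322-62547621 on the - strand and Pdk4 at chr4:34568280-34568579 on the - strand.
Pdk1: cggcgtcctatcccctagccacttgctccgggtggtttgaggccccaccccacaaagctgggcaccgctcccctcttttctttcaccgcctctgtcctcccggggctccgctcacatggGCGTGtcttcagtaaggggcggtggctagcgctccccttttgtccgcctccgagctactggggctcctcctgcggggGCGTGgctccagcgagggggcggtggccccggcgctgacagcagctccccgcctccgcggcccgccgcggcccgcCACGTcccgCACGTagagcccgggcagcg
Pdk2: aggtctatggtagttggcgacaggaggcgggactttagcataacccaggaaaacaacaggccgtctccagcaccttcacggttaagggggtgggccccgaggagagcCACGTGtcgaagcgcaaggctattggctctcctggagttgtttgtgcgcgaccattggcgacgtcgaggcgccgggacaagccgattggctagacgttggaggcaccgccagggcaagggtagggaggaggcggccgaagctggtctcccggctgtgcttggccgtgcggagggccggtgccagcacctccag
Pdk3: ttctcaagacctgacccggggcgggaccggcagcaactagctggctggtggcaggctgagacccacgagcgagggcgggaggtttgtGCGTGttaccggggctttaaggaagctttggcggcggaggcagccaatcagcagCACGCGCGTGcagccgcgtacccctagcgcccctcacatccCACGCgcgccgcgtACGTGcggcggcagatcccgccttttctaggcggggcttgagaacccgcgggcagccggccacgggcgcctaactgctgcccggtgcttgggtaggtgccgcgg
Pdk4: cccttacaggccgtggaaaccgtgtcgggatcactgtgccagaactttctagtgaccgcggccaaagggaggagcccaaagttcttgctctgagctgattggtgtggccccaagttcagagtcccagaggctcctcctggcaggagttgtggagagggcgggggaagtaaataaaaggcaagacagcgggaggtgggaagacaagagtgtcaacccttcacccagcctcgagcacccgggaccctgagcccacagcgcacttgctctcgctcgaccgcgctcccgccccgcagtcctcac

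Pdk1 held 4 matches and Pdk3 held 5, in 4 separate runs each. Pdk2 held a single CACGTG, and Pdk4 held no match in this window. Of all 33469 promoters of this length in the table, 41.6% held either motif, 19.3% held ACGTG and 29.7% held GCGTG. At least 4 matches were held by 3.46%. The promoters of the complex found there were 54.3% (Pdhb) to 72% (Pdk1) G or C, and these shares were not matched for that. Of the 8 promoters found, 7 held either motif. Among them were those of Pdhb, with 5 matches in 3 separate runs, and of Dlat and Pdha1, with 3 matches each. The runs of Pdhb include CACGTG, which counts on both strands. A match is only a description of the letters. Whether the matches bear on the levels was not tested.

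**Figure D1:**
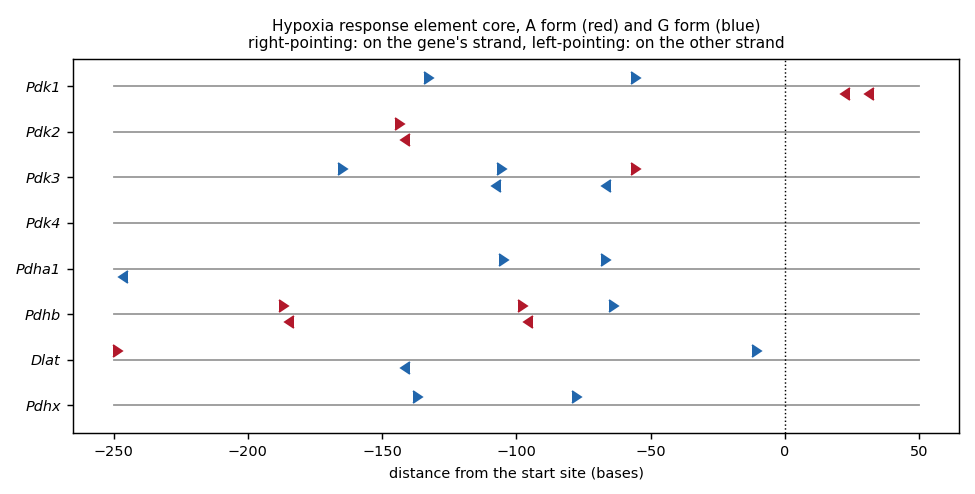
Matches of the hypoxia response element core in the promoters of 8 genes of the complex, by distance from the start site in bases (x axis), with ACGTG in red, GCGTG in blue, right-pointing marks on the gene's strand and left-pointing marks on the other strand. Pdk1 and Pdk3 carry 4 and 5 matches in 4 separate runs each, Pdhb carries 5 in 3 separate runs, and Pdk4 carries 0.

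Hypoxia against control asks what 24 h of low oxygen do to these cells. It found 2 of the 4 kinases, Pdk1 and Pdk3, above the control beyond counting error and the 4 core subunits below it. By such intervals 28.8% of the 6699 most abundant rows were above the control and 39.1% below. Pdha1 lay near the middle of those rows, with a larger difference in 3593 of them and a lower one in 3101. Pdk1 was 7.26-fold and Pdk3 2.06-fold higher in the hypoxia library, while all 4 core subunits were lower, from 1.05-fold for Pdha1 to 1.62-fold for Dlat. The phosphatases differed in opposite directions, with Pdp1 1.22-fold higher and Pdp2 1.97-fold lower. At least 2-fold higher were 2 of the 10 genes, Pdk1 and Pdk3, and 0 were at least 2-fold lower. Among the 6699 most abundant rows, the upper 50% of detected rows, 1.88% were at least 2-fold higher and 0.224% at least 2-fold lower. Only 6 of the 10 genes lie among those rows, Pdk1 and Pdk3 included. The other 4, Pdk2, Pdk4, Pdp2 and Pdhx, lie below them with a mean under 310.5, and over the 9991 rows at or above the mean of Pdk4, the lowest of the 10, the shares were 3.16% and 0.751%.

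Pdk1 had an adjusted count of 3144 with In-Cl, 3182 with DPN, 3630 with E2 and 3282 in hypoxia alone, against 451 in the control. All 4 hypoxic libraries were far above the control and close to each other. The log2 difference of the hypoxia library from the control was 2.86, with a counting interval of 2.73 to 3.00, and 24 of the 6699 most abundant rows had a larger one. Scaling the libraries to equal totals lowered the median of these rows by 0.14 and gave Pdk1 a difference of 2.72.

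Pdk3, an X-linked kinase isoform, had 550 with In-Cl, 604 with DPN, 599.9 with E2 and 616 in hypoxia alone, against 299 in the control. Again the control stood below all 4 hypoxic libraries. The log2 difference was 1.04 (counting interval 0.85 to 1.23), just past the 2-fold line, and 117 of the 6699 rows had a larger one. It was under that line at 0.90 with equal totals and at 0.88 when the In-Cl library took the place of the hypoxia library.

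Pdk2, an isoform found in most tissues, showed no such step. Its adjusted count was 337 with In-Cl, 347 with DPN, 259 with E2 and 292 in hypoxia alone, against 297 in the control, so that the control lay inside the range of the hypoxic libraries. The log2 difference between the hypoxia and control libraries was -0.025, with a counting interval of -0.25 to 0.20, and its sign turned to 0.02 with median centring. A difference of that size was not detectable at this depth.

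Pdk4 rested on few reads, about 48 with In-Cl, 21 with DPN, 37 with E2 and 26 in hypoxia, against 21 in the control. The corresponding adjusted counts were 47.4 with In-Cl, 22.4 with DPN, 40.4 with E2 and 26.9 in hypoxia, against 17.1 in the control. The order of the libraries differed from that of Pdk1, with In-Cl and E2 at the top. The log2 difference of hypoxia from control was 0.62, and its counting interval of -0.25 to 1.54 included 0. It was 0.31 with quantile normalization.

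**Figure D2:**
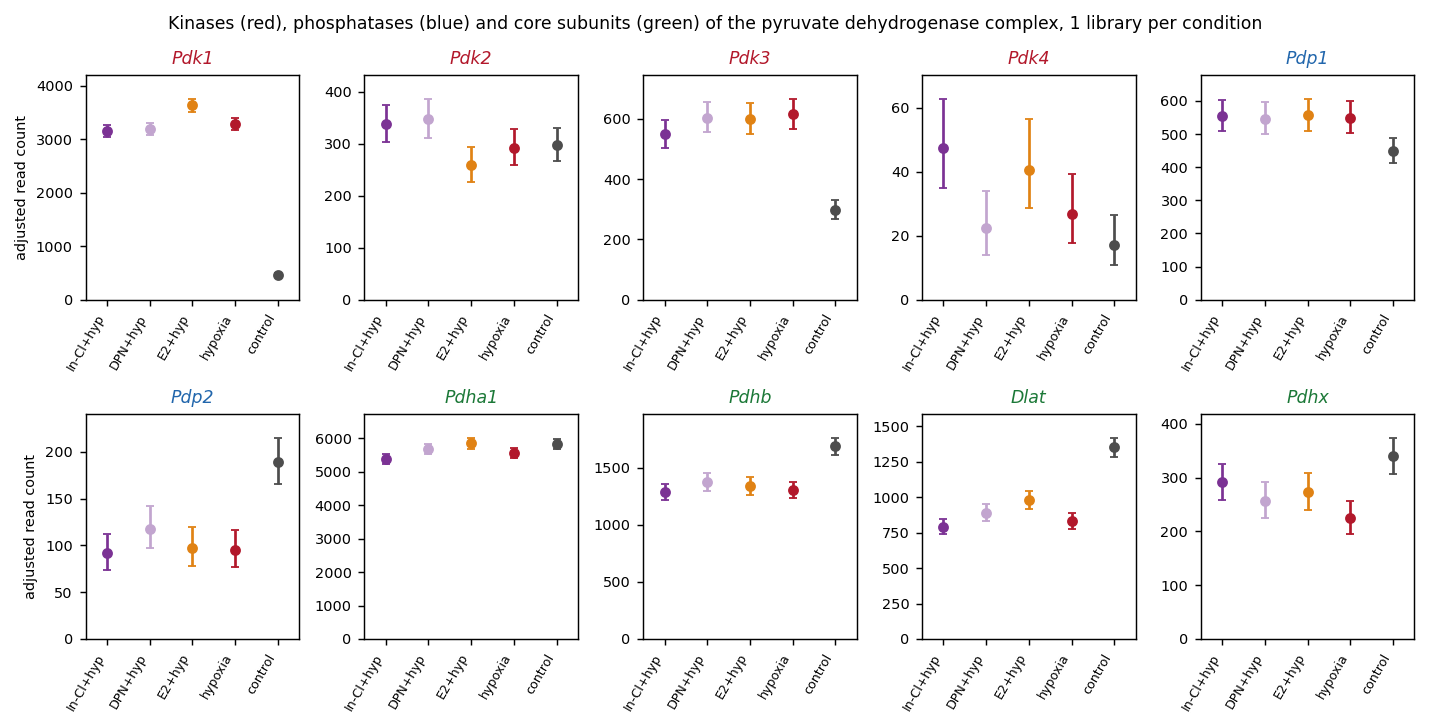
Adjusted read count (y axis, linear, from 0, scaled for each gene) of the 10 genes in the 5 libraries, 1 library per condition, with points for the level and bars for the exact 95% Poisson interval of counting error. The 4 hypoxic libraries stand above the control for Pdk1, Pdk3, Pdk4 and Pdp1 and below it for Pdp2, Pdhb, Dlat and Pdhx.

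Pdp1 and Pdp2 are the catalytic subunits of the phosphatase that reactivates the complex. Pdp1, the calcium-sensitive form, had 555 with In-Cl, 547 with DPN, 556 with E2 and 549 in hypoxia alone, against 449 in the control. The 4 hypoxic libraries were nearly equal, within 0.02 on the log2 scale, and above the control. The difference between the hypoxia and control libraries was 0.29 (counting interval 0.11 to 0.46), or 0.14 with equal totals. Pdp2 had 91.7 with In-Cl, 118 with DPN, 97.0 with E2 and 95.1 in hypoxia alone, against 189 in the control. Here every hypoxic library was below the control. The log2 difference was -0.98, with a counting interval of -1.35 to -0.63. Pdp2 is not among the 6699 most abundant rows, of which 18 had a lower difference and 0.224% were at least 2-fold lower. Over the 9991 rows, which include Pdp2, that share was 0.751%. The difference of Pdp2 passed the 2-fold line at -1.12 with equal totals and at -1.01 with quantile normalization. It was -0.68 with the DPN library in place of hypoxia.

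The core subunits were all lower in the hypoxia library than in the control, and by unequal amounts. Dlat, the acetyltransferase that forms the core of the complex, had 791 with In-Cl, 890.4 with DPN, 979 with E2 and 831 in hypoxia alone, against 1351 in the control. All 4 hypoxic libraries were below the control, and the one with E2 was nearest to it. The log2 difference of the hypoxia library from the control was -0.70 (counting interval -0.82 to -0.58), and 98 of the 6699 most abundant rows had a lower one. With the E2 library in its place the difference was -0.46.

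Pdhx, which anchors the dihydrolipoamide dehydrogenase to that core, had 291 with In-Cl, 257 with DPN, 273 with E2 and 224 in hypoxia alone, against 339 in the control. The hypoxia library was the lowest of the 5. Its log2 difference from the control was -0.60 (counting interval -0.84 to -0.36), while the In-Cl library in its place gave -0.22 and the E2 library -0.32. Pdhb, the beta subunit of the decarboxylase, had 1285 with In-Cl, 1373 with DPN, 1336 with E2 and 1303 in hypoxia alone, against 1685 in the control. The hypoxic libraries lay close together below the control, at -0.37 (counting interval -0.47 to -0.27) for the hypoxia library.

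Pdha1, the alpha subunit that the kinases phosphorylate, differed least of the 4. It had 5389 with In-Cl, 5680 with DPN, 5852 with E2 and 5548 in hypoxia alone, against 5828 in the control. The control lay inside the range of the hypoxic libraries. The log2 difference of -0.07 had a counting interval of -0.12 to -0.02. It was -0.22 with equal totals, and with the E2 library in place of hypoxia the sign turned, to 0.006. Map3k15, which overlaps Pdha1 in the RefSeq gene table, had no row among the deposited values. Neither had the long noncoding RNA genes that overlap Pdk2 and Pdhx there. Whether counting used the strand is not given in the sources. Pdha2, the testis form of the alpha subunit, was listed at 0 in every library.

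**Figure D3:**
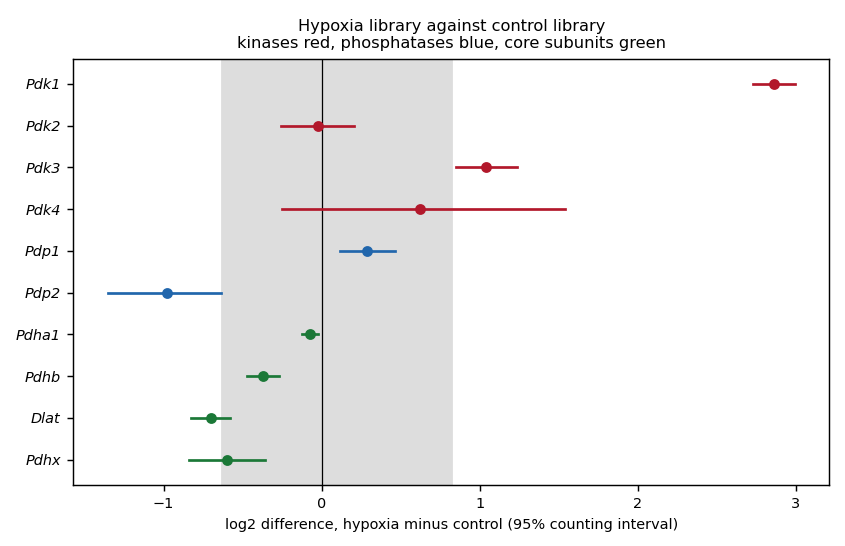
Log2 difference of the hypoxia library minus the control library (x axis) for the 10 genes, with 95% counting intervals as lines, kinases in red, phosphatases in blue and core subunits in green; the grey band is the middle 95% of the 6699 most abundant rows, from -0.63 to 0.83. Pdk1 and Pdk3 lie to the right of the band, and Pdp2 and Dlat to its left. Pdk2, Pdk4, Pdp2 and Pdhx are less abundant and are not among the rows of the band.

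By counting interval, 3 of the 10 genes were above 0 in hypoxia against control (Pdk1, Pdk3 and Pdp1) and 5 were below 0 (Pdp2 and the 4 core subunits). At this depth such intervals leave out 0 for many rows, 28.8% of the 6699 upward and 39.1% downward. Of the 6 genes among those rows, 3 were above and 3 below. At a 1.5-fold line Pdk1, Pdk3 and Pdk4 were higher and Pdp2, Dlat and Pdhx lower, where 4.39% of the 6699 rows were higher and 3.39% lower, and 7.54% and 5.26% of the 9991 rows. Of these, Pdk4 was under that line at 0.48 with equal totals and Pdhx at -0.55 with median centring. All 4 hypoxic libraries were above the control for 4 of the 10 genes and below it for 4, beside 30.6% and 41.8% of the 6699 rows. These 4 contrasts share the control library. The median log2 difference over the 10 genes was -0.05, close to that of the 6699 rows at -0.045. Of the genes 4 were above 0 (Pdk1, Pdk3, Pdk4 and Pdp1) and 6 below, beside 2923 and 3768 of the 6699 rows.

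The balance within the set was taken from sums of adjusted counts, in which abundant genes weigh most. The summed adjusted count of the 4 kinases was 3.83-fold that of the control with In-Cl, 3.90-fold with DPN, 4.25-fold with E2 and 3.96-fold in hypoxia alone. Pdk1 made up most of the sum in the hypoxic libraries but not in the control, with 451 of 1064. The sum of the 4 core subunits was 0.843-fold of the control with In-Cl, 0.891-fold with DPN, 0.917-fold with E2 and 0.859-fold in hypoxia alone, and most of it was Pdha1. The log2 ratio of the kinase sum to the subunit sum was therefore higher than in the control by 2.18 with In-Cl, 2.13 with DPN, 2.21 with E2 and 2.21 in hypoxia. With every gene given equal weight, the kinases averaged 1.13 above the control and the subunits -0.43 in the hypoxia library, a smaller gap of 1.56. Shares of each kinase per transcript length were not computed, because the tables used here hold no transcript lengths.

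In-Cl, DPN and E2 against hypoxia ask what each compound adds to low oxygen. Pdk1 lay within 0.145 on the log2 scale of its hypoxic level in all 3 libraries, and 0 of the 10 genes differed by 2-fold from hypoxia in any of them. Among the 6699 most abundant rows the share at least 2-fold higher was 0.0597% in the In-Cl library, 0% in the DPN library and 0% in the E2 library, and the share at least 2-fold lower was 0% in the In-Cl library, 0.119% in the DPN library and 0.0299% in the E2 library. The 3 comparisons share the hypoxia library, so a value that is low or high there enters all 3. At a 1.5-fold line 1 of the 10 genes was higher with In-Cl, Pdk4, where 1.22% of the 6699 rows and 2.75% of the 9991 rows were, and 0 were lower, where 0.194% of the 6699 were. With DPN 0 of the 10 passed that line, where 0.119% of the 6699 rows were higher and 0.179% lower, and with E2 0 passed it, where 0.119% were higher and 0.104% lower. E2 was given at another concentration than In-Cl and DPN, and its values stand beside theirs without a comparison.

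With In-Cl, Pdk4 and Pdhx were above hypoxia by counting interval, 2 of the 10 genes, and 0 were below. Neither Pdk4 nor Pdhx is among the 6699 rows, of which 25.3% were above and 29.2% below. Of the 6 genes among those rows, 0 were above and 0 below. Pdk4 was 1.74-fold higher, with a log2 difference of 0.80 and a counting interval of 0.10 to 1.57, from about 48 reads with In-Cl against 26 in hypoxia. Pdhx was 1.30-fold higher at 0.375, with an interval of 0.12 to 0.64. Pdk1 was at -0.06 (interval -0.13 to 0.01) and Pdk3 at -0.165 (interval -0.33 to 0.004), so neither differed beyond counting error.

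With DPN, Pdk2 was above hypoxia at 0.25, with a counting interval of 0.01 to 0.48, and was the only gene of the 10 whose interval left out 0. Of the 6699 rows, which do not include Pdk2, 15.7% lay above 0 by their intervals and 17.4% below. Of the 6 genes among those rows, 0 lay above and 0 below. Pdp2 had the largest difference of the 10 at 0.305, but its interval of -0.10 to 0.72 included 0. The core subunits were at 0.03 for Pdha1, 0.075 for Pdhb, 0.10 for Dlat and 0.19 for Pdhx, all with intervals that included 0. Pdk1 was at -0.045 (interval -0.12 to 0.03).

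With E2, 18% of the 6699 rows were above hypoxia by counting interval and 17.9% below. Of the 10 genes 4 were above, 3 of them among those rows, and 0 were below. These were Pdk1 at 0.145 (interval 0.07 to 0.22), Dlat at 0.24 (interval 0.10 to 0.38), Pdhx at 0.28 (interval 0.01 to 0.55) and Pdha1 at 0.08 (interval 0.02 to 0.13). All were small, 1.22-fold or less, and Pdk1 with E2 was the highest of the 5 libraries. Pdk4 was at 0.57, with about 37 reads against 26 and an interval of -0.16 to 1.39. Pdk2 was at -0.18 (interval -0.44 to 0.08).

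**Figure D4:**
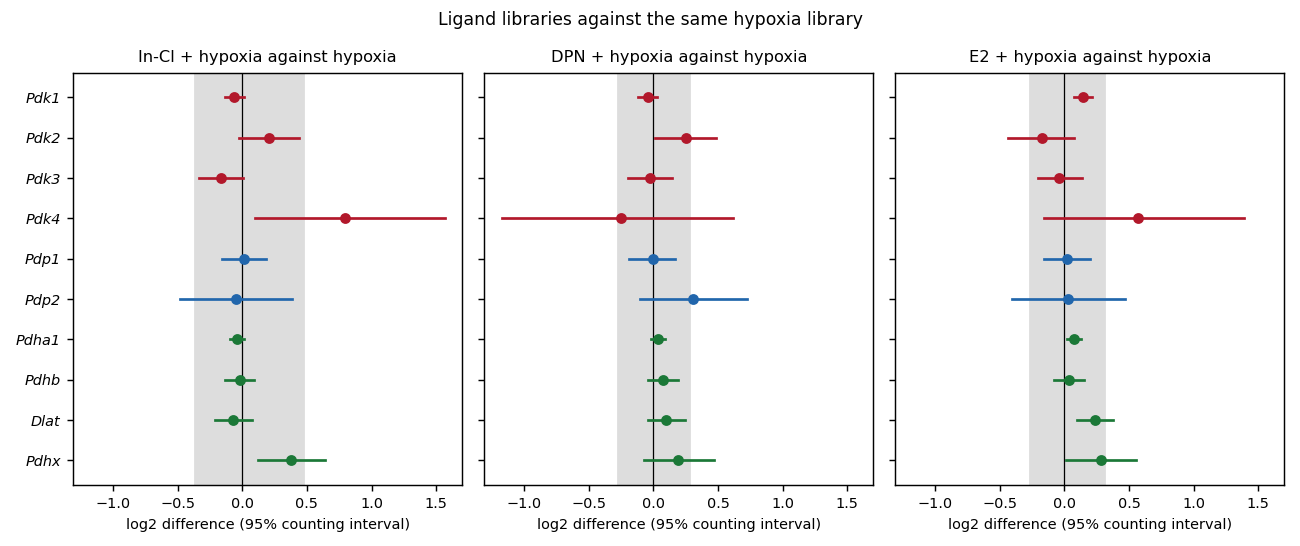
Log2 differences of the In-Cl, DPN and E2 libraries from the same hypoxia library (x axes, shared scale) for the 10 genes, with 95% counting intervals as lines and the middle 95% of the 6699 most abundant rows as a grey band. Most genes lie near 0, Pdk4 has the widest intervals, and its value with In-Cl is 0.80.

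In-Cl and DPN were given at the same concentration, 0.1 µM, and can be set side by side for the 10 genes. Pdk4 was 2.07-fold higher with In-Cl than with DPN, about 48 reads against 21, at a log2 difference of 1.05 with a counting interval of 0.32 to 1.90. It was the only gene of the 10 past 2-fold or 1.5-fold. Of the 6699 rows 0.134% were at least 2-fold higher and 0.0149% lower, and 0.508% were at least 1.5-fold higher and 0.0448% lower. Over the 9991 rows 0.29% were at least 2-fold and 1.95% at least 1.5-fold higher. Pdha1 at -0.08 (interval -0.13 to -0.02) and Dlat at -0.17 (interval -0.31 to -0.03) were lower with In-Cl than with DPN beyond counting error. By interval 1 of the 10 genes was thus above 0 and 2 were below. Of the 6 genes among the 6699 rows 0 were above and 2 below, where 20.5% of those rows were above and 24.5% below. The other 7 genes had intervals that included 0. For Pdk1 the interval was -0.09 to 0.06. It covers counting error between these libraries only and sets no limit on a difference between the compounds.

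The rest of the pathway was read from lists of genes around the complex. Dld, the dihydrolipoamide dehydrogenase shared with other complexes, had 1881 with In-Cl, 1887 with DPN, 1779 with E2 and 1789 in hypoxia alone, against 2253 in the control. Like Pdhb, Dlat and Pdhx it was below the control in every hypoxic library, by -0.33 (counting interval -0.42 to -0.24) in the hypoxia library. Pdpr, the regulatory subunit of the phosphatase, had 229 with In-Cl, 172 with DPN, 188 with E2 and 122 in hypoxia alone, against 136 in the control. It was thus lowest in hypoxia alone, and its log2 differences from that library were 0.90 with In-Cl (counting interval 0.58 to 1.24), 0.49 with DPN (interval 0.14 to 0.85) and 0.62 with E2 (interval 0.27 to 0.97), again from 1 shared hypoxia library.

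Upstream of the complex, Mpc1 and Mpc2 form the carrier that brings pyruvate into the mitochondrion. Mpc1 was lower in hypoxia than in the control by -0.30 (counting interval -0.43 to -0.16) and Mpc2 was at -0.11 (interval -0.26 to 0.04). Ldha, the lactate dehydrogenase subunit that favours reduction of pyruvate, was 7.68-fold higher with a log2 difference of 2.94, close to that of Pdk1, while Ldhb, the subunit that favours the reverse reaction, was lower at -0.41 (interval -0.56 to -0.26). The lactate exporter Slc16a3 was highest of this list at 5.05.

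Downstream, all 16 detected TCA cycle genes were below 0 in hypoxia against control, where 3768 of the 6699 rows were. By counting interval 12 of the 16 were below 0, where 39.1% of the 6699 rows were. The median of the 16 was -0.31, beside -0.045 for the 6699 rows. Ogdh, the first component of the complex that oxidises 2-oxoglutarate in the way this one oxidises pyruvate, was lowest at -0.65 (interval -0.74 to -0.55), and Sdha, a succinate dehydrogenase subunit, was highest at -0.045. With median centring Sdha stood at 0 and the other 15 stayed below. None of the 16 was 2-fold lower. The core subunits, with a median of -0.48, lay within the range of this list apart from Dlat.

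Of the other lipoyl complexes and their kinase and phosphatase, a list that also holds Ogdh, 6 of 10 detected genes were below 0 by counting interval and 2 above, where 39.1% of the 6699 rows were below and 28.8% above. Gcsh, the lipoyl carrier of glycine cleavage, was lowest at -0.87 and Ogdhl, a relative of Ogdh, highest at 0.64. Of these 10 genes, 8 are among the 6699 rows. In cofactor supply 2 of 6 were below and 1 above by interval. Of the 6, 0 are among the 6699 rows, which are more abundant, so those shares are no like measure for this list. In it the lipoyl transferase Lipt2 was highest at 0.48. Among other sources of acetyl-CoA and TCA intermediates 7 of 12 were below and 2 above by interval, beside the same shares. Of these 12, 8 are among the 6699 rows. Cpt1a, which admits fatty acids to mitochondria, was lowest at -0.63, and Me3, a mitochondrial malic enzyme, was highest at 1.88 on about 42 reads in hypoxia against 13 in the control.

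The 10 targets of hypoxia-inducible factor listed for scale were all at least 2-fold higher, between 1.53 for the angiogenic factor Vegfa and 5.12 for Egln3, a prolyl hydroxylase, with a median of 3.17. Pdk1 at 2.86 lay inside that range and Pdk3 at 1.04 below it. Of 12 transcription factors known to act on these kinase genes, 4 were above 0 and 1 below by interval. Only 6 of the 12 are among the 6699 rows, of which 28.8% were above and 39.1% below. Foxo3 was highest at 1.51 and Hif1a, whose protein is controlled mainly by its breakdown, lowest at -0.29 among those with a mean adjusted count over 10.

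**Figure D5:**
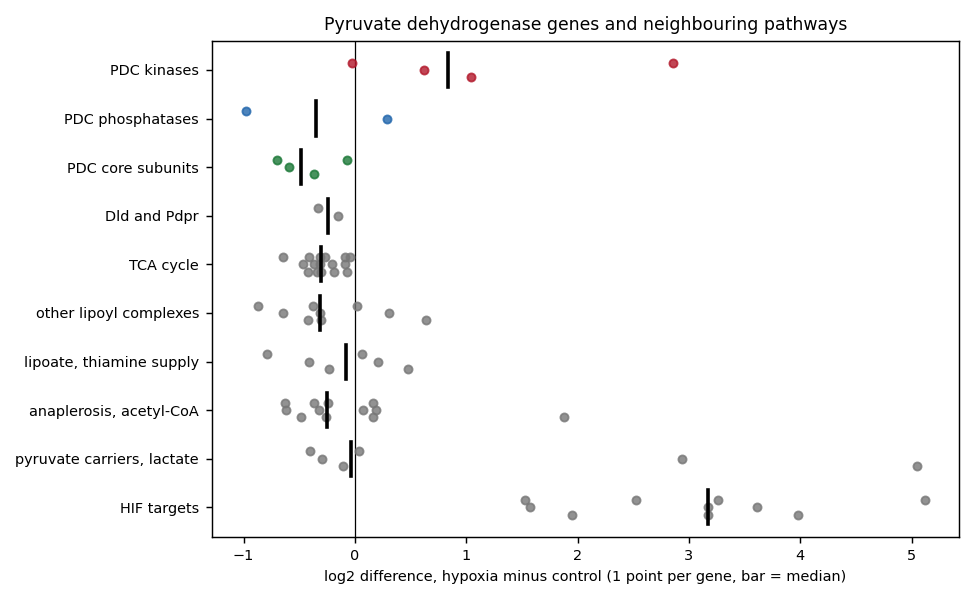
Log2 difference of the hypoxia library minus the control library (x axis) for the 10 genes, by role, and for lists of neighbouring pathways, with 1 point per gene with a mean adjusted count over 10 and a bar at the median of the points. All 16 TCA cycle genes lie left of 0, the kinases spread from -0.025 to 2.86, and the 10 targets of hypoxia-inducible factor lie at 1.53 or more.

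Across the 5 libraries, the row whose profile came nearest to that of Pdk1 was Ldha. Likeness was the root mean square difference of log2 profiles, each centred on its own mean, over 6548 abundant rows with a named gene. Ldha was at 0.053, followed by Tmem106a at 0.095, P4ha2 at 0.107, Slc2a1 at 0.107 and Tmem45a at 0.108. For Pdha1 the nearest were Nfyc at 0.0064, Cbx3 at 0.0080, Trappc3 at 0.012, Ufm1 at 0.014 and Ufsp2 at 0.014. The hypoxia-minus-control differences of these 5 lay between -0.061 and -0.038, so near-flat profiles resemble that of Pdha1.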

How the data were processed

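RNA of rat vascular smooth muscle cells was sequenced in 5 libraries, 1 per condition. The authors deposited 1 table per library with log2 values for 17048 gene symbols; per the submitters' processing notes, the tools were TopHat and edgeR and the genome build was rn6. Their versions, the counting program, the annotation and any use of strand are not given in the sources. The scale of the values is not stated, and they were read as log2 of a read count adjusted between libraries, plus 1. The linear value of 1 read was found from the steps of values up to 2.5 reads, without values nearer to 0 than to 1 read. Of the values used, at least 90.8% in each library lay within 0.2 read of a whole number. Count models were not fitted, because the tables hold log2 values and each condition has 1 library. Differences are of deposited log2 values. Counting intervals use the exact Clopper-Pearson and Poisson methods at 95%, and since reads are not independent molecules they cover counting error only. Background shares were taken over the 6699 most abundant of 13397 detected rows. Alternatives were other pseudocounts and scalings, low values raised to 3 reads, other filters and folds, and another hypoxic library.

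The 10 genes and the lists around them were chosen with earlier results of these data known. Named besides the 10 are the highest and lowest gene of each list in hypoxia against control (mean adjusted count over 10), Dld, Mpc1, Mpc2, Ldha and Ldhb, and the 5 profiles nearest to Pdk1 and Pdha1. The lowest gene of 1 list is not reported here. Functions were tested on simulated data. Python 3.11.15, numpy 2.4.6, pandas 2.3.3, scipy 1.17.1 and matplotlib 3.10.9 were used.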

Additional observations from a re-analysis of the deposited data

How the results depend on the processing

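Of 280 values of the 10 genes under alternatives that could move at least some of them, 267 stayed inside the counting interval of the reported value. The sign changed for 14, of which 13 had an interval that included 0. The remaining 1 was Pdha1, at 0.006 with the E2 library in place of hypoxia. The median of the 10 genes in hypoxia against control was 0.0935 with the DPN library in place of hypoxia, against -0.048. Other pseudocounts and median centring, with 50 values per setting, moved no value out of its interval. They shift the median of abundant rows by 0.045 at most, so they add little to that count. Equal totals took 5 values out and quantile normalization 2. With another library in place of hypoxia, In-Cl took out 1, DPN 1, and E2 3 besides the sign change of Pdha1. Median centring could not move the values of DPN or E2 against hypoxia, where it shifted the abundant rows by 0. Raising values under 3 reads and summing rows of a symbol could not move the 10 genes, which have 1 row each and at least 21 reads. Equal totals shifted the median of abundant rows by -0.14 in hypoxia against control. There this scaling took Pdk1, Pdha1, Pdhb and Dlat out of their counting intervals, each with its sign unchanged. No paired analysis was possible because each condition has 1 library, and no replicate could be left out.

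Counts over all rows moved more. In hypoxia against control, 15 rows at least 2-fold lower became 37 with equal totals and 9 with median centring. With no filter the counts of higher and lower rows were 1186 and 435 in hypoxia against control, 475 and 641 with In-Cl, 642 and 642 with DPN, 625 and 600 with E2, and 499 and 581 for In-Cl against DPN. At 1.5-fold they were 294 and 227 in hypoxia against control, 82 and 13 with In-Cl, 8 and 12 with DPN, 8 and 7 with E2, and 34 and 3 for In-Cl against DPN. Over the 9991 rows at or above the mean of Pdk4, a choice made after seeing the data, they were 316 and 75 in hypoxia against control, 44 and 24 with In-Cl, 17 and 25 with DPN, 19 and 25 with E2, and 29 and 16 for In-Cl against DPN. Depth limits Pdk4, with 21 to 48 reads a library, most of the 10 genes.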

Other observations

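Foxo1, a transcription factor known to act on Pdk4, was singled out after its values were seen. It had an adjusted count of 372 with In-Cl, 324 with DPN, 358 with E2 and 253 in hypoxia alone, against 169 in the control. It stood above hypoxia by 0.55 with In-Cl (counting interval 0.32 to 0.79), 0.36 with DPN (interval 0.11 to 0.60) and 0.50 with E2 (interval 0.25 to 0.74), from 1 shared hypoxia library. By interval 25.3%, 15.7% and 18% of the 6699 rows, which do not include Foxo1, were above. Of the 12 factors listed, 8 were above hypoxia and 4 below with In-Cl, and 7 above and 5 below with DPN and with E2. Pdk4 was at -0.25 with DPN, with an interval that included 0. A link between Foxo1 and Pdk4 was not tested. Foxo3 was above hypoxia with In-Cl at 0.295 (interval 0.05 to 0.54), and was at -0.18 with DPN and -0.07 with E2, with intervals that included 0.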
